A study of Mus musculus with 6 samples.

Results

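The miR-30 family was read on mouse microRNA arrays of MCT cells, a renal tubular cell line derived from SJL H-2S mice. The members are the guide strands mmu-miR-30a, mmu-miR-30b, mmu-miR-30c, mmu-miR-30d and mmu-miR-30e (written below without the species prefix), chosen by name from the array's annotation with the opposite arms (marked by an asterisk) kept apart. All 5 were on the array, among 611 mouse miRNAs, and were read by 11 probes and 100 spots of the 1759 probes and 12220 spots for mouse miRNAs. The 3 TGFβ arrays hold RNA of cells kept for 72 hours in TGFβ at 3 ng/ml, and the 3 control arrays that of unstimulated cells. Per the labels, medium with 10% serum was exchanged for 0.5% serum on the day before stimulation. The cells are 1 line, and the labels do not state whether replicates were cultured separately. The p-values therefore reflect only how far these samples spread, and that spread may be technical.

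MicroRNAs are short RNAs that guide Argonaute proteins to messenger RNAs, mainly through the seed near the 5′ end, and lower the output of those messages. The miR-30 family is abundant in kidney epithelium. Members are known to repress Snai1, a transcription factor of epithelial-mesenchymal transition, and the matricellular factor Ctgf. TGFβ is a cytokine that promotes fibrosis and can push tubular cells away from their epithelial state, so the comparison asks what happens to an epithelial miRNA family under that cytokine.

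The mature sequences show why the members are treated as a family and why their probes need care. Of the 5 guides, 3 matched the RefSeq miRNA table (GRCm38.p6), and they are printed 5′ to 3′ with the seed, bases 2 to 8, in capitals.
miR-30a: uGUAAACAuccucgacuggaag
miR-30c: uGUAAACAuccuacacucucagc
miR-30e: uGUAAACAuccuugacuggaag
The strand opposite miR-30a, printed with its own bases 2 to 8 in capitals, has another seed.
miR-30a*: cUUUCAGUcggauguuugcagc
miR-384-5p, a separate gene's product, carries the miR-30 seed and differs after it.
miR-384-5p: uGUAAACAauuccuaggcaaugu
The seed GUAAACA was found in 4 of the 1679 mature names in that table (0.238%), namely these 3 guides and miR-384-5p. miR-30b and miR-30d had no matched sequence there, so the count leaves them out and does not show whether they carry the seed. miR-30a and miR-30e were identical at 21 of 22 positions and differed by C13U, counted from the 5′ end. miR-30a and miR-30c were identical over the first 12 bases and at 17 of the 22 positions compared. Signal from a near-identical relative cannot be told apart from a member's own signal in these files, since the probe sequences were not used here. In the RefSeq gene table the miR-30 genes lie in neighbouring pairs, Mir30a beside Mir30c-2, Mir30b beside Mir30d, and Mir30c-1 beside Mir30e, the last pair within the gene of the transcription factor subunit Nfyc. miR-30c therefore has 2 genes that give the same mature sequence. The gene table also lists Mir30f, which spans Mir30e and is its nearest miRNA gene.

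Signals are given as log2 of the scaled intensity. Arrays were brought to a common 75th percentile, which before scaling lay between 249.5 and 402.4 intensity units, and miRNAs were tested with limma where they were well above background on all 3 arrays of a group (84 of 611). Between 74 and 103 miRNAs were well above background per array. Control 1 stood apart from the other controls. Over the 84 miRNAs the absolute log2 difference had a median of 0.48 and 0.52 from control 1 to controls 2 and 3, between 0.16 and 0.26 from control 1 to the TGFβ arrays, and 0.0578 between controls 2 and 3. Over the 105 probes well above background throughout, controls 2 and 3 still differed by more than the error between spots (mean squared difference 11.9 times the spot error). That ratio also takes in differences between hybridisations and does not show separate cultures, and both were counted as samples because the labels list them as such. The label of tubular cells had no direct support from marker miRNAs, as 0 of 5 tubule markers (miR-192, miR-194, miR-215, miR-204 and miR-211) and 0 of 5 epithelial markers (the miR-200 family) were well above background on any array. Of the 22 markers of other cell types, only miR-206 of the muscle list was, on 4 arrays. The summed scaled signal of that list of 4 was 17.3 to 26.0 on control and 26.5 to 32.5 on TGFβ arrays, with miR-133b at the floor on every array, and its part in the results below was not tested.

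Detection differed sharply among the members. miR-30a was well above background on all 6 arrays, miR-30d on control 1 and the 3 TGFβ arrays, and miR-30c on 2 control and 2 TGFβ arrays. miR-30b and miR-30e did not reach that mark on any array. The filter therefore passed 2 of the 5 members, miR-30a and miR-30d. miR-30d passed through the TGFβ group alone.

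**Figure D1:**
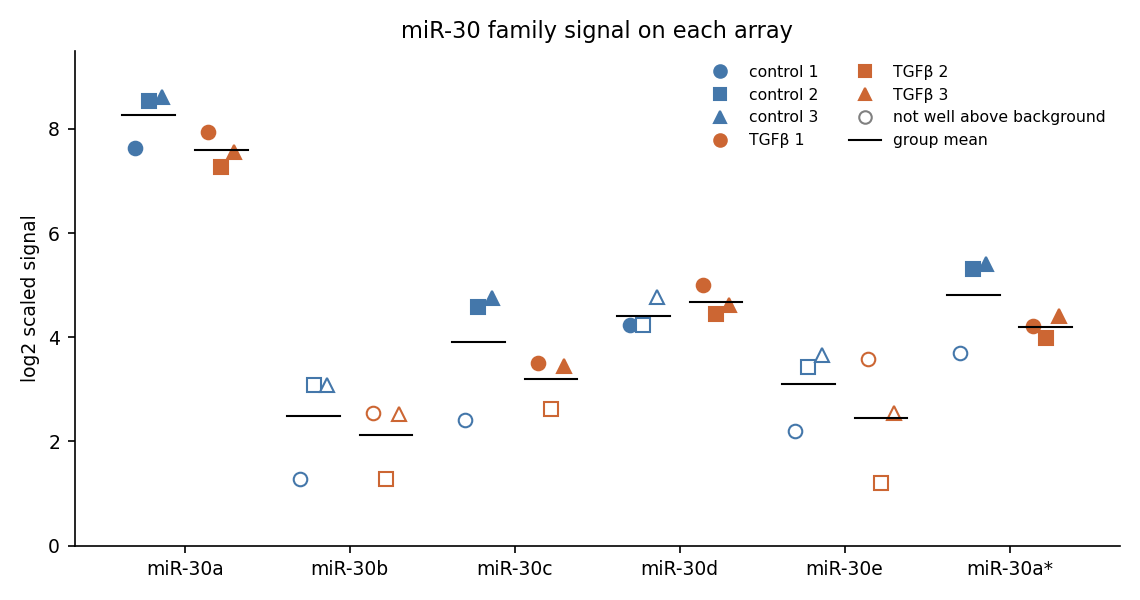
Log2 scaled signal (vertical axis) of the 5 guide strands and of miR-30a* on each of the 3 control (blue) and 3 TGFβ (orange) arrays. Marker shape gives the replicate number, open markers were not well above background, and lines are group means. Controls 2 and 3 read highest for miR-30a (8.54 and 8.61), miR-30c and miR-30a*, while control 1 lies among or below the TGFβ arrays.

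miR-30a, the member with the clearest signal, read lower on every TGFβ array than on controls 2 and 3, whereas control 1 lay within the range of the TGFβ arrays. Its log2 signal was 7.63, 8.54 and 8.61 on controls 1 to 3. On TGFβ 1 to 3 it was 7.95, 7.26 and 7.55. There was overlap because control 1 was below TGFβ 1. With control 1 left out, 70.6% of 85 tested miRNAs had groups that did not overlap. In that set 44.7% of the 85 were lower without overlap, so the separation from controls 2 and 3 was common. The control mean of miR-30a was 8.26 ± 0.55 and its TGFβ mean 7.59 ± 0.34 (SD, n = 3). They differed by -0.68 on the log2 scale (SE 0.33, limma adjusted p = 0.391), a 1.60-fold lower level. That was the lowest difference of the 84 tested miRNAs, yet it did not pass the threshold of 0.05, and its SE was above the median SE of 0.23.

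With all 6 arrays, 0 of the 2 tested members passed in limma, against a background of 0.0% of the 84 tested miRNAs called. At an unadjusted p under 0.05 the counts were 0 of 2 members and 8 of 84 miRNAs (9.52%). The groups of neither tested member were free of overlap, where 14.3% of the 84 miRNAs had groups that did not overlap. The median log2 difference over all tested miRNAs was -0.09, with 35 higher and 49 lower. Relative to that median miR-30a differed by -0.59 and miR-30d by 0.36. Without scaling between arrays the median moved to 0.26 and the difference of miR-30a to -0.33. A factor per array shifts every tested miRNA alike, so miR-30a stays at -0.59 relative to the median by construction.

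Without control 1, miR-30a was lower in TGFβ-treated cells and passed. miR-30c also had an adjusted p under the threshold, but it entered that fit only through controls 2 and 3, where it is high, so its call is not counted as support. The background in the same fit was 36.5% of 85 miRNAs called, and 23.5% called lower, so calls were common there. The log2 value of miR-30a changed by -0.998 (SE 0.22, limma adjusted p = 0.0264), a 2.00-fold lower level. Its adjusted p lay between 0.0184 and 0.976 over all alternatives. The array left out is the control nearest to the TGFβ arrays, and the p-values do not allow for that choice. The other 5 arrays, left out singly, each gave 0 called members.

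Of the 3 probes of miR-30a, the brighter pair ordered controls 2 and 3 above every other array, and the dimmest probe did not. The brightest had 6 spots and read 467.7, 866.9 and 904.9 scaled intensity units on controls 1 to 3, against 550.7, 358.0 and 431.5 on TGFβ 1 to 3. Its dimmest spots on controls 2 and 3 (794.4 and 825.8) were above its brightest spot on any TGFβ array (576.4), so the gap to these controls did not rest on single spots. The second probe, with 7 spots, read 115.8, 229.4 and 244.0 in control and 155.7, 93.1 and 118.2 in TGFβ arrays. Used alone, these probes gave log2 differences of -0.70 (SE 0.31, limma adjusted p = 0.386) and -0.64 (SE 0.35, limma adjusted p = 0.433). The third probe was well above background on TGFβ 1 alone, with 7 of 7 spots there and at most 1 of 7 on any other array, and it gave -0.33 (SE 0.56). TGFβ 1 was thus the brightest array on that probe, at 33.7 scaled units against 8.71 to 26.3 elsewhere, while controls 2 and 3 were brightest on the other probes.

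The precision behind these values was not equal. Spots of the brightest miR-30a probe varied by 15.8% on control 1 and 15.9% on TGFβ 2 (coefficient of variation), and by 5.00% to 6.30% on the other arrays. The same arrays had a median spot variation over the whole array of 15.6% and 14.8%, against 6.55% to 7.95% elsewhere. Control 1 and TGFβ 2 are the pair in slide column 1 according to the array position in the file headers. The part of this spread in the results was not tested.

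**Figure D2:**
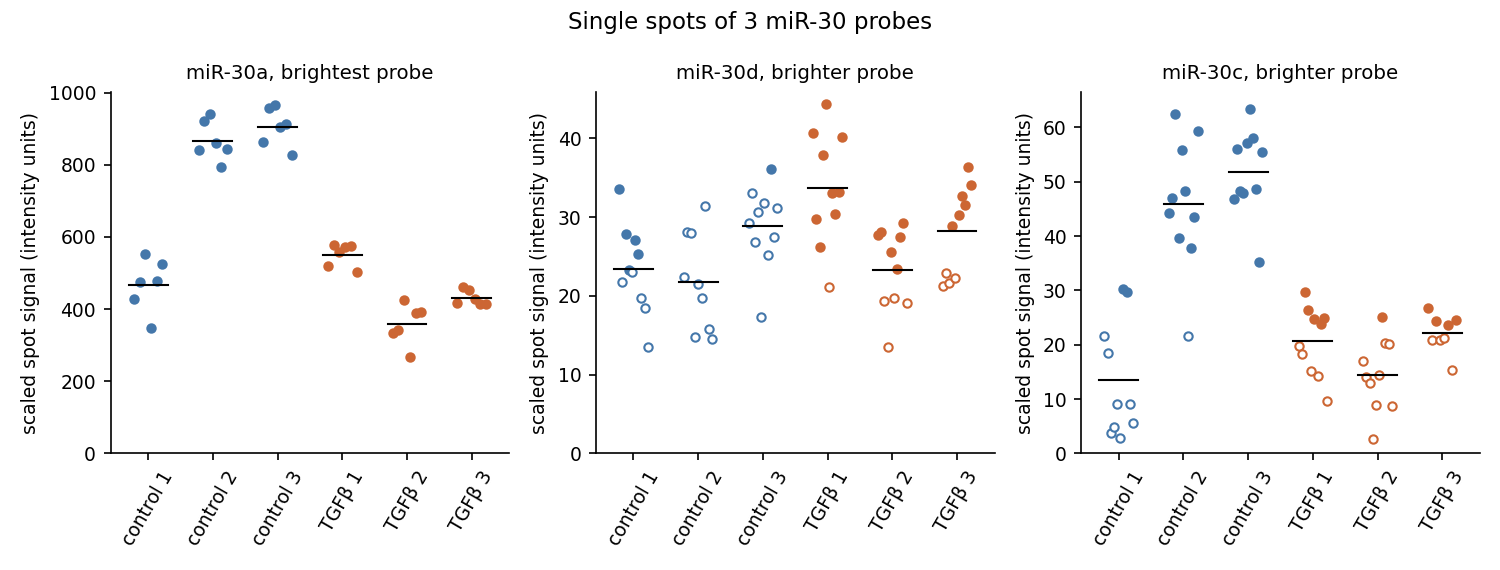
Scaled signal in intensity units (vertical axis, linear, a separate range for each panel) of single spots of 3 probes on each array, without spots marked as outliers. Filled points were well above background, open points were not, and lines are means. For miR-30a all 6 spots on controls 2 and 3 lie above every TGFβ spot, whereas the spots of the brighter miR-30d probe, the one plotted, overlap between all arrays.

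miR-30d, whose gene neighbours that of miR-30b, did not share the direction of miR-30a. It read 4.24, 4.24 and 4.77 on controls 1 to 3, against 5.00, 4.44 and 4.61 on TGFβ 1 to 3. There was overlap, with control 3 above 2 of the TGFβ arrays. The means were 4.42 ± 0.31 and 4.69 ± 0.28 (SD, n = 3), which differ by 0.27 (SE 0.23, limma adjusted p = 0.52), and 0.17 (SE 0.24, limma adjusted p = 0.606) without control 1. With normexp, run on the median spot and local background signals with an offset of 50, the difference was -0.13, where the median of all tested miRNAs was also -0.13. In the other alternatives it lay between 0.0391 with median scaling and 0.91 with Feature Extraction's total signal. It was 0.11 without TGFβ 1 and 0.45 without control 3, and it passed in none of the fits.

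Both probes of miR-30d lay close to background. The brighter read 23.4, 21.8 and 28.9 scaled units in control and 33.7, 23.3 and 28.2 in TGFβ arrays, and the other 14.4, 16.0 and 25.7 against 30.3, 20.2 and 20.8. TGFβ 1 was the highest array on both. On the dimmer probe its spots (26.1 to 34.8) lay above every spot of controls 1 and 2 (highest 19.4 and 24.8). The spots of control 3 on that probe (17.1 to 32.5) overlapped those of TGFβ 1. Whether a spot is well above background is judged within each array, before scaling. The dimmest probe well above background lay at 22.4 to 27.8 unscaled units on the 6 arrays, and miR-30d at 21.0, 15.5 and 20.8 in control and 35.7, 26.8 and 25.5 in TGFβ arrays. Before scaling its groups did not overlap, as for 13.1% of the 84 miRNAs that were higher without overlap on that scale, where the median difference was 0.26. With each array at its 75th percentile they did overlap.

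miR-30a and miR-30d can be set against each other on the same array, which removes any factor common to the array. The log2 signal of miR-30a minus that of miR-30d was 3.40, 4.30 and 3.84 on controls 1 to 3, against 2.95, 2.82 and 2.94 on TGFβ 1 to 3. Every control array, control 1 included, lay above every TGFβ array. miR-30d had passed the filter through the TGFβ group alone, the group with its higher mean, so that choice favours such a gap and the separation is a description. These values compare different probes, so their size is no ratio of abundance and only the change between groups is read. The means were 3.85 ± 0.45 and 2.90 ± 0.072 (SD, n = 3), a change of -0.95 (two-sided exact permutation p = 0.1, adjusted p = 0.3 over 3 pairs). With 3 arrays against 3 no p below 0.1 is possible, so this comparison could not pass the threshold. That p also carries the choice of miR-30d through its higher group and is not counted as support. The adjusted p takes in pairs that were chosen after the values were seen.

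The within-array gap was below 0 in all 16 alternatives run for it, between -1.45 with Feature Extraction's total signal and -0.41 with normexp. The exact permutation p was 0.1 in both. Scaling by 1 factor per array cancels in this gap, and the floors of 5 and 10 lay below both signals. Those alternatives returned the main value of -0.95 by construction and are no separate checks. With log2 taken per probe the gap was -0.84 (exact permutation p = 0.1). With quantile normalization it was -0.85 (exact permutation p = 0.2), and with each array left out it lay between -1.17 and -0.72. Since miR-30d was not well above background on controls 2 and 3, the size of the gap rests on signal near background there. As background, the difference between miR-30a and another tested miRNA was lower on every TGFβ array than on every control array for 17 of 83 miRNAs (20.5%), and higher for 0 (0.0%). For miR-30d the difference was higher without overlap for 17 of 83 (20.5%) and lower for 1 of 83 (1.2%).

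**Figure D3:**
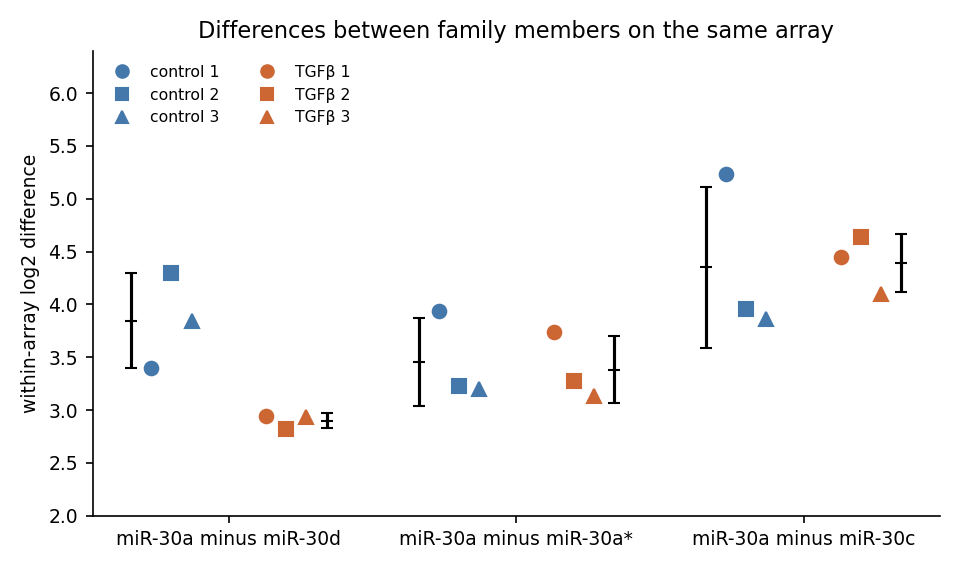
Difference in log2 scaled signal between 2 strands on the same array (vertical axis), for 3 pairs on the control (blue) and TGFβ (orange) arrays, with marker shape for the replicate number. Black bars give mean ± SD (n = 3). The control values of miR-30a minus miR-30d (3.40 to 4.30) lie above the TGFβ values (2.82 to 2.95), and the groups of the other pairs overlap. miR-30d passed the filter through the TGFβ group alone, which favours such a gap, so the separation is a description.

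miR-30c, made from genes beside those of miR-30a and of miR-30e, was highest on controls 2 and 3, like miR-30a, at a level near background. It read 2.40, 4.59 and 4.75 on controls 1 to 3, against 3.50, 2.62 and 3.45 on TGFβ 1 to 3. Controls 2 and 3 were above every TGFβ array, and control 1 was below all of them. As background, 44.7% of 85 tested miRNAs were lower without overlap when control 1 was left out. With all 6 arrays miR-30c was not tested, and its means were 3.91 ± 1.31 and 3.19 ± 0.49 (SD, n = 3), a log2 difference of -0.72. Feature Extraction's own total signal per miRNA turned that value to 0.48.

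The value of miR-30c moved with single arrays. Its log2 difference was -1.48 without control 1, -0.38 without control 2, -0.30 without control 3 and -0.44 without TGFβ 2. The fit without control 1 gave an adjusted p of 0.0239 in limma, in a test that miR-30c entered only through the group where it is high. The same fit with no filter, added after seeing the data, gave a limma adjusted p = 0.294. One of its probes carried the signal. The brighter probe read 13.5, 46.0 and 51.7 scaled units in control and 20.7, 14.5 and 22.2 in TGFβ arrays, with 2, 9 and 10 of 10 spots well above background in control and 5, 1 and 5 in TGFβ arrays. The other probe lay between -2.95 and 2.10 scaled units on all arrays, with 0 spots well above background. The within-array difference of miR-30a and miR-30c had means of 4.35 ± 0.76 and 4.39 ± 0.27 (SD, n = 3) and overlapping groups (exact permutation p = 1.0, adjusted p = 1.0). It includes miR-30c values that were not well above background on control 1 and TGFβ 2.

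miR-30b and miR-30e were short of well above background in both groups, so no fold is given for them. miR-30b read 1.28, 3.09 and 3.08 in control and 2.55, 1.28 and 2.53 in TGFβ arrays. miR-30e read 2.19, 3.44 and 3.66 in control and 3.59, 1.21 and 2.55 in TGFβ arrays. The groups of both overlapped. The lowest pair of arrays was control 1 and TGFβ 2 for each, the arrays with the most variable spots. The brighter probe of miR-30e had 3 of 10 spots well above background on TGFβ 1, 2 on control 3 and 1 on control 2, so some signal was present below the mark of 0.5 of spots.

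The opposite arms give a second reading of the same precursors, as guide and passenger are cut from 1 hairpin. miR-30a* and miR-30e* were identical at 21 of 22 positions, so signal from miR-30e* cannot be told apart from that of miR-30a* here. Of 5 opposite arms on the array, miR-30a* alone was well above background on any array, on controls 2 and 3 and on the 3 TGFβ arrays. It read 3.70, 5.31 and 5.41 on controls 1 to 3, against 4.21, 3.99 and 4.41 on TGFβ 1 to 3. Like its guide, it was highest on controls 2 and 3, and control 1 was the lowest array. That order was common, as 44.7% of 85 tested miRNAs were lower without overlap when control 1 was left out.

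The means of miR-30a* were 4.81 ± 0.96 and 4.20 ± 0.21 (SD, n = 3), which differ by -0.60 (SE 0.48, limma adjusted p = 0.505), the third lowest of the 84. Without control 1 it was -1.16 (SE 0.17, limma adjusted p = 0.0157), and its adjusted p lay between 0.0157 and 0.976 over all alternatives. That fit, which leaves out the control nearest to the TGFβ arrays, called 36.5% of 85 miRNAs, and 23.5% lower. The same fit with no filter, added after seeing the data, gave miR-30a* a limma adjusted p = 0.123. The guide minus the opposite arm of miR-30a was 3.46 ± 0.42 on control arrays and 3.38 ± 0.32 on TGFβ arrays (SD, n = 3), a change of -0.0759 (exact permutation p = 0.7, adjusted p = 1.0). The groups overlapped for this difference, and 3 arrays a group leave a wide margin around it. miR-30b*, miR-30c-1*, miR-30c-2* and miR-30e* were well above background on 0 arrays and lay between 0.0815 and 3.43. miR-384-5p was at the floor of 0 on 5 arrays and read 0.85 on control 1, not well above background.

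**Figure D4:**
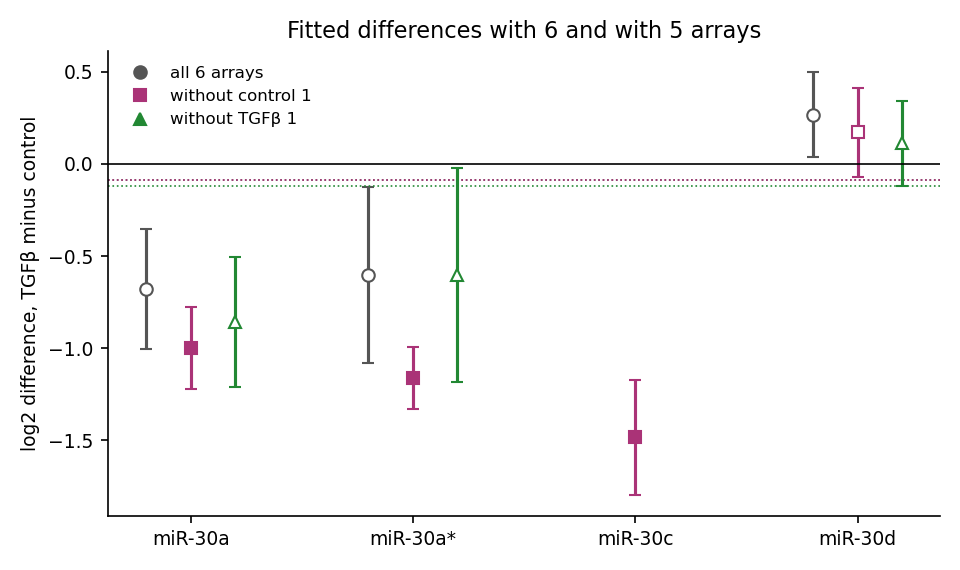
Log2 difference, TGFβ minus control (vertical axis), with standard errors as bars, fitted by limma with all 6 arrays, without control 1 and without TGFβ 1. Filled markers passed an adjusted p of 0.05, dotted lines are the median of all tested miRNAs in each fit, and miR-30c was tested in 1 of these 3 fits. miR-30a, miR-30a* and miR-30c pass only without control 1 among these fits, in a fit that called 36.5% of 85 miRNAs. miR-30c was tested there only because it is high on controls 2 and 3. miR-30d lies above 0 in each fit, a sign favoured by its passing the filter through the TGFβ group alone.

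Slide position and replicate number give the comparison within smaller sets of arrays. Row 1 of the slide held the 3 control arrays and TGFβ 1, and row 2 held TGFβ 2 and TGFβ 3, so row and treatment largely coincide. With the row as a block miR-30a differed by -0.32 (SE 0.45, limma adjusted p = 0.726), a value that rests on TGFβ 1 against the controls. In slide column 1, TGFβ 2 minus control 1 was -0.37 for miR-30a, 0.20 for miR-30d, 0.22 for miR-30c and 0.29 for miR-30a*. In column 2, TGFβ 3 minus control 2 was -0.99, 0.37, -1.14 and -0.89 in the same order. With the column as a block, a fit that rests on these pairs of arrays, miR-30a differed by -0.68, miR-30d by 0.29 and miR-30a* by -0.30. miR-30a was lower and miR-30d higher in both columns, while miR-30c and miR-30a* changed sign. The higher sign of miR-30d is favoured by the filter, which it passed through the TGFβ group alone. Between arrays of the same replicate number, miR-30a differed by 0.31, -1.28 and -1.06 for numbers 1 to 3, and miR-30d by 0.76, 0.20 and -0.16. The gap between miR-30a and miR-30d was -0.45, -1.48 and -0.91, below 0 in 3 of 3 pairs. It carries the same choice of miR-30d through the TGFβ group, so these signs are a description.

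The tested miRNAs outside the family whose log2 profiles, each centred on its own mean, lay nearest to miR-30a were miR-27b, miR-324-5p and miR-130a, at root mean square distances of 0.14, 0.18 and 0.19 log2 units over the 6 arrays. The median distance over the 82 miRNAs compared was 0.498, and miR-30d lay at 0.54, with 49 of the 82 closer. miR-27b, the nearest, read 4.06, 5.28 and 5.15 in control and 4.49, 4.08 and 4.03 in TGFβ arrays. It was also highest on controls 2 and 3. All these profiles share the same 6 arrays and their scaling, so the distances are a description.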

How the data were processed

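The deposited files give an intensity per spot from which Agilent Feature Extraction had removed background, with no scaling from array to array, per the file headers (version 10.7.3.1; the submitters' processing notes give 10.1.1). The value table deposited for the series repeated these intensities. Other deposited columns included 0 or 1 flags per spot, median spot and local background signals, and Feature Extraction's total signal per miRNA. Cy3-labelled RNA (100 ng per array) was hybridised, per the labels' protocols. Spots without outlier marks were averaged per probe and probes per miRNA. Arrays were scaled to the 75th percentile of 105 probes well above background (at least 0.5 of spots) on all arrays, with a floor of 1, then log2. No spot was saturated. limma 3.58.1 in R 4.3.3 (lmFit, eBayes, two-sided, Benjamini-Hochberg over all tested miRNAs, threshold 0.05) was tested on simulated data. The simulated errors were independent between miRNAs. They therefore do not show how the fits behave where an array such as control 1 differs over many miRNAs. Figures used matplotlib 3.10.9. The miRNAs named are the members, their opposite arms, miR-384-5p, the markers and the 3 nearest profiles of each member seen on all arrays. Members and lists were chosen with earlier results of these data known. The pairs other than miR-30a and miR-30d were chosen after the values were seen.

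Deviations from the group means correlated by 0.383, 0.373 and 0.521 over the 84 miRNAs between arrays with the same replicate number. Any pairing by number comes from the data, not the labels, and control 2 correlated as well with TGFβ 3 (0.385). The main fit and the permutation tests were unpaired. Replicate numbers were used as pairs only in the replicate block, which is an alternative.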

Additional observations from a re-analysis of the deposited data

How the results depend on the processing

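The miR-30a difference stayed below 0 in 29 of 29 alternatives, between -0.998 and -0.32 (slide row as a block). With all 6 arrays, changing only the filter, the floor, the variance estimate or the replicate block left miR-30a and miR-30d at their main differences. Those alternatives are in the counts but are no separate checks of the sign. The miR-30a difference passed with array weights (-0.96, limma adjusted p = 0.0184) and without control 1, with -0.998 to -0.50 over arrays left out. The array weights put 0.214 on control 1. They called 40 of 84 miRNAs, 1 miR-30 member and 1 opposite arm, against 0 to 31, 0 to 2 and 0 to 1 over arrays left out, where the 2 include miR-30c, tested only through its high controls. With the replicate block 1 miRNA passed, no member among them (miR-30a -0.68, SE 0.34, limma adjusted p = 0.409), and no other call changed. With the slide row as a block 3 passed. miR-30d was above 0 in 26 of 27 alternatives, up to 0.91, with 0.11 to 0.45 over arrays left out. It was -0.13 with normexp, which also used other signal columns and an offset of 50, so the cause was not tested. The filter passed miR-30d through the TGFβ group alone, which favours a value above 0, so this count of signs is a description. miR-30a* was 0.29 within slide column 1, -1.03 with array weights, and between -1.16 and -0.30 with single arrays left out. Without control 1 and with no filter, an alternative chosen after seeing the data, 0 of 611 miRNAs passed in limma (63 at an unadjusted p under 0.05), and miR-30a and miR-30c had adjusted p = 0.294. There the test covers 611 miRNAs, most of them below background. Signal near background limits every member but miR-30a.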
